A study of Mus musculus with 13 samples.

Results

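The cell cycle and proliferation genes described here were a set of 32 mouse genes named for their parts in DNA replication, mitosis and the control of both, and 31 of them were measured among 12393 genes in all. A member counted as measured when a probe set on the array was annotated with its symbol and no other, and where several did, the brightest on average stood for the gene. Ccnb1, which encodes cyclin B1, had no such probe set and has no values here. The RNA came from the duodenum, the stretch of small intestine next to the stomach, of mice on a mixed strain background, with 1 array per sample and 13 arrays in all. The mutant mice carry the ViRas genotype, which the series title ties to oncogenic K-Ras, and the other mice are labelled wild type. What is known of the study is that the mutant K-Ras allele is switched on in the intestinal epithelium by a villin promoter that drives Cre, so the other cells of the gut wall are not its target. From 5 weeks of age the mice were given 1 of 3 diets for 22 weeks. The normal diet (ND) groups held 2 wild-type and 3 mutant arrays, the high-fat diet (HFD) groups held 2 wild-type and 2 mutant arrays, and the groups given butyrate, a product of bacterial fermentation in the gut, along with the high-fat diet (HFD+butyrate) held 1 wild-type and 3 mutant arrays. The design text calls the samples mice, but the labels do not say how the replicates were taken, so every p-value speaks of the spread among these arrays, which may in part be technical.

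The intestinal epithelium is renewed from crypts, where stem cells and their fast-dividing progeny pass through S phase and mitosis before they move up the villus and stop dividing. Cells on the way into S phase load the MCM helicase onto replication origins and make the enzymes that supply deoxynucleotides. Cells on the way into mitosis accumulate cyclin B, Cdk1 and the machinery of the spindle, and the anaphase promoting complex then has the mitotic proteins destroyed. Both waves of transcription are written into the promoters: E2F sites mark many S phase genes, and a pair of elements, the CCAAT box bound by NF-Y and the cell cycle genes homology region (CHR), marks many mitotic genes.

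The promoters of 8 members are shown because the stretches printed hold these elements in different combinations, including none. Each is the stretch of 150 bases before the start of the gene in the RefSeq promoter table (mouse build GRCm38.p6), read 5′ to 3′ on the gene's strand. Capitals mark the letters TTTGAA for the CHR, CCAAT for the NF-Y box and TTTNNCGC for the E2F site, searched on both strands, and matches may overlap. Cdk1 (chr10:69352913-69353062, minus strand) holds all 3 motifs in the stretch shown. Mki67 (chr7:135716380-135716529, minus strand), Ube2c (chr2:164769779-164769928, plus strand) and Cdc20 (chr4:118437344-118437493, minus strand) hold the CHR and the NF-Y box. Bub1 (chr2:127831860-127832009, minus strand) holds the NF-Y box alone, Mcm6 (chr1:128359706-128359855, minus strand) the NF-Y box and the E2F site, Mcm2 (chr6:88898781-88898930, minus strand) the CHR alone, and Birc5 (chr11:117849087-117849236, plus strand) none of them. These combinations are those of the stretch shown. In the wider windows counted below, every member with the CHR letters, Mcm2 among them, also holds the NF-Y letters.
Cdk1: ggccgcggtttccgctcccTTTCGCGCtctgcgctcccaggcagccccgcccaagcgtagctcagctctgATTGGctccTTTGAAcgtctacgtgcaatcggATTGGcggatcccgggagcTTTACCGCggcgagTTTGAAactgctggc
Mki67: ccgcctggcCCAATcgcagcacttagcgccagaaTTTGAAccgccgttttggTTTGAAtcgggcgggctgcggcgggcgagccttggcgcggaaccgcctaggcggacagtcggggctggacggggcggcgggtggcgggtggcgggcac
Ube2c: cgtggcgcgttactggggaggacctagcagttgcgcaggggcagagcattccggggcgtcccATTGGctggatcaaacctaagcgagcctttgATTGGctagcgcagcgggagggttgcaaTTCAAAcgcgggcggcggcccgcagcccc
Cdc20: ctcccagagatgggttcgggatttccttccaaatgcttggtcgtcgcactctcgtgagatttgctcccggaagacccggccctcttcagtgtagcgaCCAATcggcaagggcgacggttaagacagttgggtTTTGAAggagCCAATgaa
Bub1: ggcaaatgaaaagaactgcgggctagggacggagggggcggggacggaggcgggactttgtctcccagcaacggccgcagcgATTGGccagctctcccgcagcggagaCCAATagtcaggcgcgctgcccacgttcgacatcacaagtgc
Mcm6: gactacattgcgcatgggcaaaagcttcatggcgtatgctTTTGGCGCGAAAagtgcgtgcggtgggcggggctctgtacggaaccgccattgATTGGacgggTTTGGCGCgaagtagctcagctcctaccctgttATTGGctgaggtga
Mcm2: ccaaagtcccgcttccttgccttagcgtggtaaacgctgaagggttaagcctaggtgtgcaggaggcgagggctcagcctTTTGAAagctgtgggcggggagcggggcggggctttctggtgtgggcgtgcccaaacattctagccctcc
Birc5: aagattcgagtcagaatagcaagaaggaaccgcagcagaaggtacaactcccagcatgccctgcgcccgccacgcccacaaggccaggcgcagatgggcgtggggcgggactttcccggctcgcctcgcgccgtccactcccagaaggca

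In the table, 27 of the 32 members were found, with 29 promoter windows that reach from 250 bases before to 50 bases after a start. Mcm4, Kif20a, Ccna2, Aurkb and Foxm1 were not matched. The CHR letters stood in 13 of the 29 windows (44.8%) and in 17.9% of all 32851 windows of the table. The NF-Y letters stood in 79.3% of the members' windows and 37.4% of all windows, and the E2F letters in 24.1% and 5.17%. CHR and NF-Y letters together were found in 44.8% of the members' windows and in 6.95% of all. The median GC content was 57.7% in the members' windows and 52.7% in all. In the 12566 windows of the genes tested on the arrays, the median GC content was 59.0%, above that of the members. There the CHR, NF-Y and E2F letters stood in 12.9%, 37.1% and 7.31%, and CHR and NF-Y letters together in 5%. These are matches of letters in a window and not measured sites.

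The tissue label was checked against markers before the members were read. Vil1, an actin bundling protein of the brush border, lay between 11.83 and 12.32 on all arrays (log2 RMA level), and Pdx1, a transcription factor of the duodenum and pancreas, between 6.65 and 8.24. The mean level of 13 acinar pancreas genes, such as Cpb1 and Ctrb1, ranged from 5.55 to 13.32 over the arrays and split each diet group and both genotypes, with 5 arrays under 8 and 8 arrays above it. Array identifiers run in a different number range for each diet, so every comparison of diets is also a comparison of array series, and the diet and the array series cannot be told apart. Comparisons of genotypes lie within a series. In whole tissue, fewer cells of a type and less RNA per cell cannot be told apart. RMA puts all arrays on the same distribution of values (medians 6.04 to 6.14), so a level is relative to the other transcripts on its array, and the small groups limit how precisely any difference is known.

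High-fat feeding of mutant mice went with lower levels of genes from nearly every stage of the cell cycle. Of the 31 members, 29 had a lower mean in the mutant HFD arrays than in the mutant ND arrays, and 12 fell past the threshold (limma, adjusted p under 0.05 over all 12393 genes). The median difference over the members was -0.51 (log2), against -0.02 over all genes. In this comparison 10.1% of all genes were called lower, and 12 of 31 members are 38.7%. No member was called higher, where 7.67% of all genes were. The members' HFD and ND arrays did not overlap, with HFD lower, for 21 of 31 genes (67.7%), and for 27.9% of all genes.

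**Figure D1:**
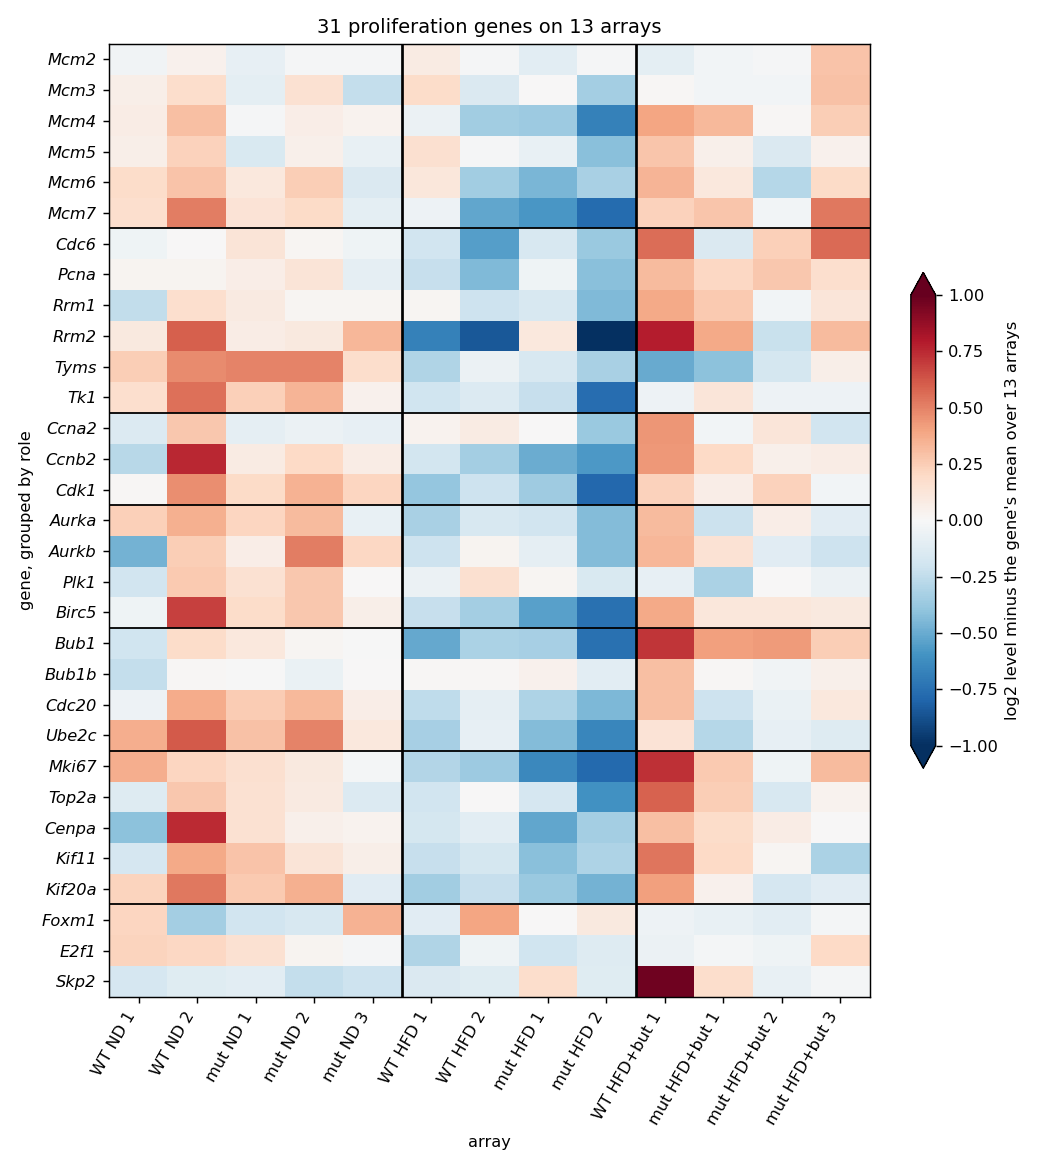
Level of each measured gene (rows, grouped by role) on each of the 13 arrays (columns, by diet), as the log2 RMA level minus the gene's mean over all arrays; WT is wild type, mut is mutant and but is butyrate. The 4 HFD columns in the middle are mostly blue, with mutant HFD 2 lowest of all arrays for 18 of 31 genes, while Mcm2, Bub1b and Foxm1 show no such band.

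Mki67 encodes the Ki-67 protein, the coat of mitotic chromosomes and the standard stain for dividing cells. Its levels on the mutant arrays were 9.24, 9.17 and 9.06 on ND and 8.43 and 8.30 on HFD. Both HFD arrays lay below all 3 ND arrays, and they were the lowest of the 13. The difference was -0.80 ± 0.12 (log2, SE; 1.74-fold lower; limma adjusted p = 0.00183). The other chromosome and spindle motor genes ran the same way. Kif20a, a kinesin of late mitosis, read 6.13, 6.23 and 5.76 on ND and 5.50 and 5.40 on HFD. Its difference was -0.59 ± 0.16 (adjusted p = 0.0258). Kif11, the motor that drives spindle poles apart, differed by -0.52 ± 0.18 (adjusted p = 0.0722), Top2a, the topoisomerase that untangles sister chromatids, by -0.42 ± 0.17 (adjusted p = 0.122) and Cenpa, the centromere histone, by -0.51 ± 0.25 (adjusted p = 0.181), and none of these 3 passed.

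Among the genes of the spindle checkpoint and the anaphase ubiquitin ligase, 3 of 4 fell. Ube2c, the ubiquitin conjugating enzyme of the anaphase promoting complex, read 10.07, 10.27 and 9.88 on ND and 9.34 and 9.12 on HFD in mutants. The groups did not overlap, and the difference was -0.84 ± 0.14 (1.79-fold lower; adjusted p = 0.00266). Cdc20, the activator of that complex, read 8.86, 8.93 and 8.67 on ND and 8.30 and 8.16 on HFD. Its difference was -0.59 ± 0.15 (adjusted p = 0.0176). Bub1, a kinase of the checkpoint that holds cells before anaphase, read 7.01, 6.92 and 6.90 on ND and 6.57 and 6.16 on HFD. Its 2 HFD arrays lay further apart than the ND arrays did, and the difference was -0.58 ± 0.15 (adjusted p = 0.025). Bub1b, which encodes the checkpoint protein BubR1, read between 6.54 and 6.69 on these 5 arrays, with a difference of -0.01 (95% interval -0.25 to 0.24).

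The kinase at the centre of mitotic entry fell with them. Cdk1 read 8.88, 9.03 and 8.90 on ND and 8.33 and 7.90 on HFD in mutants. The groups did not overlap, and the difference was -0.82 ± 0.16 (1.77-fold lower; adjusted p = 0.0059). Its partner Ccnb2, cyclin B2, differed by -0.66 ± 0.22 (adjusted p = 0.0648) without overlap, and did not pass. Ccna2, the S phase and mitotic cyclin A2, read 8.67, 8.70 and 8.68 on ND and 8.76 and 8.39 on HFD, so the groups overlapped, and the difference was -0.11 ± 0.15 (adjusted p = 0.665).

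Birc5 encodes survivin, a subunit of the complex that corrects chromosome attachment. It read 8.67, 8.76 and 8.55 on ND and 7.95 and 7.74 on HFD, apart by more than the spread within either group. The difference was -0.81 ± 0.17 (1.76-fold lower; adjusted p = 0.00912). Aurka, the kinase of the spindle poles, read 7.23, 7.33 and 6.94 on ND and 6.82 and 6.58 on HFD. Its difference of -0.47 ± 0.15 had the highest adjusted p of the 12 (0.0465). Aurkb, the kinase that works with survivin, differed by -0.53 ± 0.22 (adjusted p = 0.121), and Plk1, a kinase with roles from centrosomes to cytokinesis, by -0.21 ± 0.16 with overlapping arrays (adjusted p = 0.413).

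**Figure D2:**
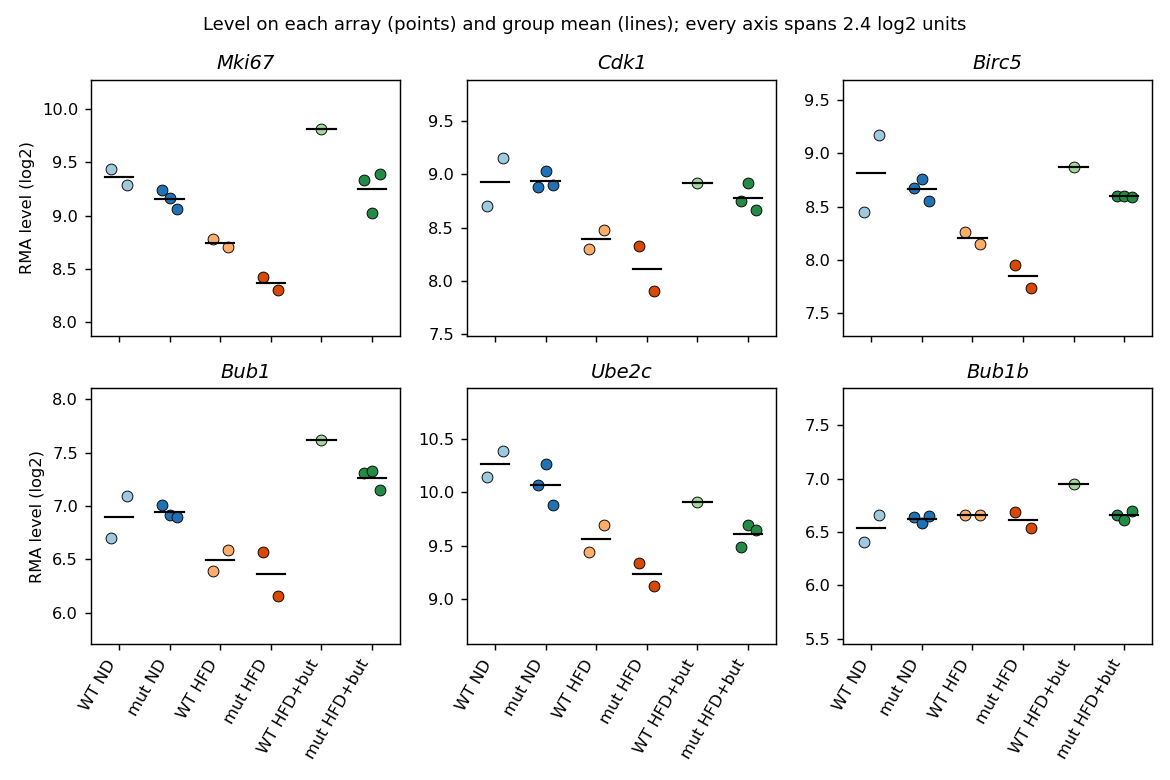
Log2 RMA level of Mki67, Cdk1, Birc5, Bub1, Ube2c and Bub1b on each array (points) with the mean of each of the 6 groups (lines); every panel spans the same number of log2 units. In mutants the HFD points of the panels other than Bub1b lie below all ND points, and the HFD+butyrate points lie above the HFD points.

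Of the 6 genes of the replicative helicase, 2 fell in mutants on HFD, Mcm7 and Mcm4. Mcm7 read 9.45, 9.50 and 9.21 on ND and 8.73 and 8.54 on HFD. Its difference was -0.75 ± 0.19 (adjusted p = 0.0198). The other Mcm7 probe sets, at mean levels of 7.42, 7.66 and 7.03, had smaller differences of -0.49, -0.18 and -0.57. Mcm4 read 7.76, 7.84 and 7.81 on ND and 7.41 and 7.10 on HFD. Its groups were also apart, with a difference of -0.55 ± 0.14 (adjusted p = 0.0224). The same helicase holds Mcm2, Mcm3, Mcm5 and Mcm6, and these did not pass. Mcm6 differed by -0.46 ± 0.18 (adjusted p = 0.0998), Mcm5 by -0.18 and Mcm3 by -0.11, and Mcm2 by -0.02 (95% interval -0.27 to 0.23).

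Of the genes of origin licensing, the sliding clamp and nucleotide supply, 2 of 6 fell. Tk1, thymidine kinase, read 8.07, 8.17 and 7.87 on ND and 7.60 and 7.07 on HFD, with a difference of -0.70 ± 0.17 (adjusted p = 0.0156). Tyms, thymidylate synthase, read 3.67, 3.67 and 3.35 on ND and 3.02 and 2.85 on HFD, with a difference of -0.63 ± 0.16 (adjusted p = 0.0201). These Tyms levels lie close to the lowest values on the arrays (1.76). The other Tyms probe sets, at mean levels of 2.64 and 2.76, differed by 0.12 and -0.03. With the probe sets of each gene averaged, Tyms did not pass. Pcna, the sliding clamp, read 11.30, 11.36 and 11.14 on ND and 11.19 and 10.81 on HFD, with 1 HFD array inside the ND range and a difference of -0.26 ± 0.12 (adjusted p = 0.154). Rrm2, the regulated subunit of ribonucleotide reductase, split the mutant HFD arrays, at 8.18 and 7.04 beside 8.15, 8.17 and 8.41 on ND, and its difference of -0.64 had an interval from -1.28 to 0.01. Rrm1, the other subunit, differed by -0.34 (adjusted p = 0.143) and Cdc6, a loader of the helicase, by -0.30 (adjusted p = 0.309).

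None of the 3 regulators in the set passed. Foxm1, a transcription factor of mitotic genes, read 5.97 and 6.51 at the ends of the mutant ND range, with ND array 2 near the lower end, and 6.17 and 6.26 on HFD, inside that range, with a difference of 0.05 (95% interval -0.42 to 0.52). E2f1, the activator of S phase genes, differed by -0.22 (adjusted p = 0.264) and Skp2, the ubiquitin ligase subunit that has p27 destroyed, by 0.21 (adjusted p = 0.284). The CHR letters described above were found in 5 of the 10 members that fell and are in the promoter table (Aurka, Cdc20, Cdk1, Mki67 and Ube2c), and in 8 of the 16 measured members that are in the table and did not pass.

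**Figure D3:**
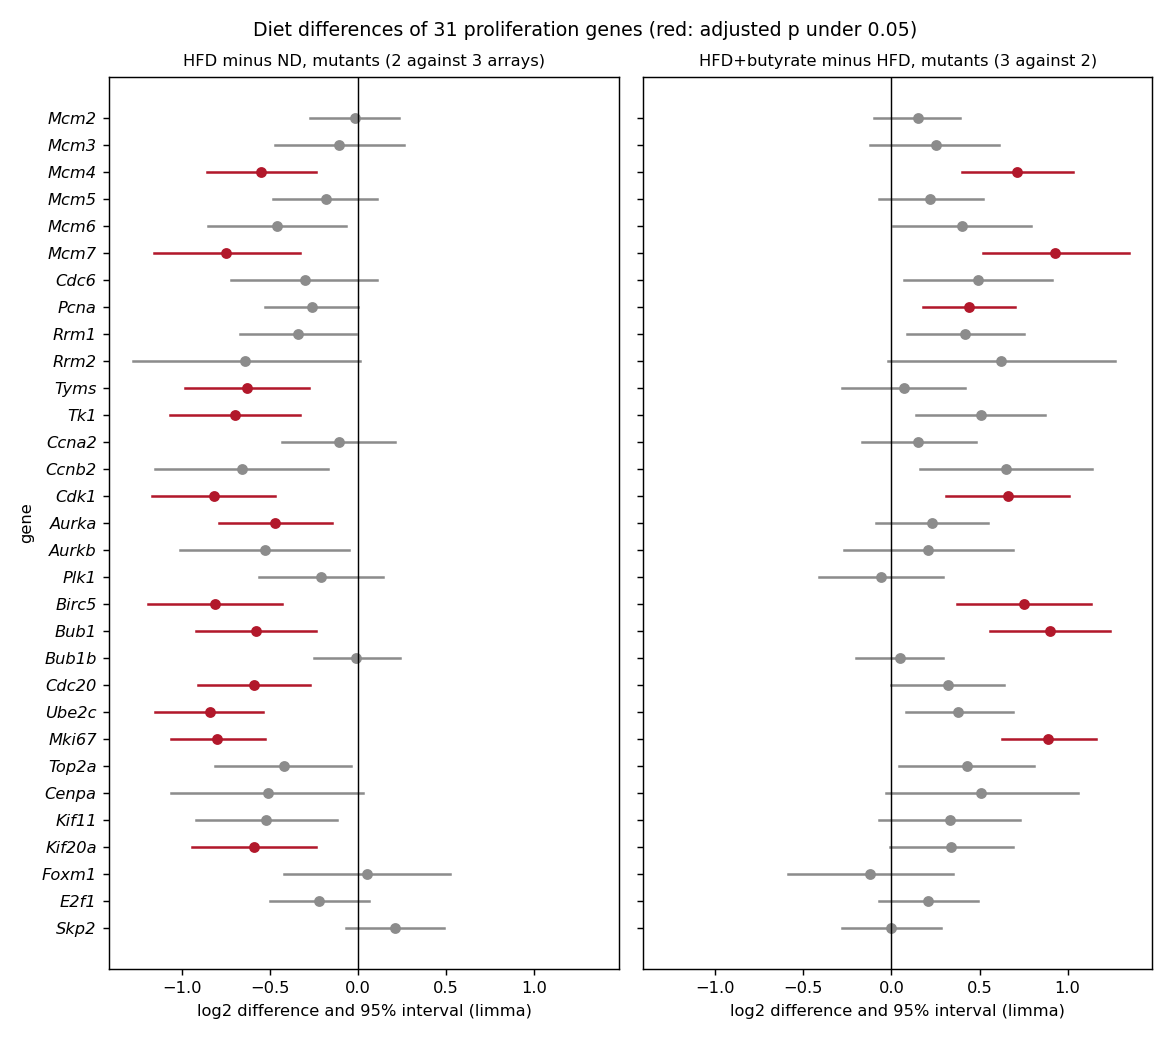
Log2 difference of each measured gene with its 95% interval from limma, for HFD minus ND (left) and HFD+butyrate minus HFD (right) in mutants; red marks adjusted p under 0.05 over all genes. On the left 12 genes are red and lie below 0, on the right 7 are red and lie above 0; both panels use the same mutant HFD arrays.

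The count of 12 depended on single arrays of both groups. Mutant HFD array 2 held the lowest value of all 13 arrays for 18 of the 31 members, and 12.8% of all genes had their lowest value there. Without it, 2 members remained past the threshold, Mki67 and Ube2c, and the differences of the other 10 ran from -0.71 to -0.35. That fit leaves 1 mutant HFD array, which is assumed to vary like the other groups. Without mutant ND array 1, or without mutant ND array 2, 4 members passed. The counts in these fits stand without the share of all genes called, so they do not set the members apart from other genes. Mki67 and Ube2c passed in each of the 5 fits that left out 1 array, with adjusted p of at most 0.0219 and 0.0329. Cdk1 and Birc5 passed in all of these fits but the one without mutant HFD array 2, where their adjusted p was 0.0656 and 0.0771 and their differences were the smallest, 0.61 and 0.71 in size.

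In wild-type mice the same diet comparison gave 4 members past the threshold, all lower on HFD. Of 31 members, 25 had a lower mean on HFD, and the median difference was -0.36 against -0.04 over all genes. Of all genes 5.42% were called lower, beside 12.9% of the members. Mki67 read 9.44 and 9.29 on ND and 8.78 and 8.71 on HFD, and its difference was -0.62 ± 0.13 (adjusted p = 0.0151). Ube2c read 10.14 and 10.39 on ND and 9.44 and 9.69 on HFD, with a difference of -0.70 ± 0.15 (adjusted p = 0.0164). Kif20a read 6.09 and 6.40 on ND and 5.52 and 5.64 on HFD, with a difference of -0.67 ± 0.17 (adjusted p = 0.0329). In these 3 genes the HFD arrays lay below the ND arrays.

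Rrm2 had the largest fall of any member in wild type, from 8.17 and 8.67 on ND to 7.40 and 7.23 on HFD, a difference of -1.11 ± 0.32 (2.15-fold lower; adjusted p = 0.0491). Cdk1 (-0.53 ± 0.18, adjusted p = 0.077), Birc5 (-0.60 ± 0.19, adjusted p = 0.0666) and Aurka (-0.54 ± 0.16, adjusted p = 0.0537) had lower means without overlap and did not pass. Plk1, Ccna2, Skp2, Aurkb and Mcm2 had differences between -0.01 and 0.03. The 4 calls depended on the arrays used, and the counts that follow stand without the share of all genes called. No member passed without wild-type HFD array 1, 1 passed without wild-type HFD array 2 or without wild-type ND array 2, and 7 passed without wild-type ND array 1. With the 4 compared arrays alone, 0 passed (limma, smallest adjusted p = 0.0845). Under the 8 alternatives in processing or fitting that kept every array of the comparison, the Rrm2 call held in 2. The other Rrm2 probe sets differed by -1.08 and -0.35.

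The test of whether the HFD difference depended on genotype called no member (limma, 0 with unadjusted p under 0.05, smallest adjusted p = 0.915, 0.00807% of all genes called). The median over the members of the mutant difference minus the wild-type difference was -0.14. For Mki67 the mutant and wild-type differences were -0.80 and -0.62, for Ube2c -0.84 and -0.70, and for Cdk1 -0.82 and -0.53. Aurkb had the smallest p, with a mutant minus wild-type difference of -0.55 ± 0.32 (95% interval -1.26 to 0.15), and for Cdk1 the interval was -0.81 to 0.23, so sizeable differences between the genotypes in either gene were not resolved. Over both genotypes, all 4 HFD arrays lay below all 9 other arrays for 8 of the 31 members (25.8%), which were Mcm4, Cdc6, Tk1, Cdk1, Birc5, Bub1, Mki67 and Kif20a. This held for 9.17% of all genes, and no member had all 4 HFD arrays on top.

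Adding butyrate to the high-fat diet went with higher levels of replication and mitosis genes in mutants. Of 31 members, 29 had a higher mean on HFD with butyrate than on HFD, and 7 rose past the threshold, where 12.9% of all genes were called higher and 22.6% of the members were. The median difference was 0.38 against 0.02 over all genes. The arrays did not overlap, with butyrate higher, for 18 of 31 members (58.1%) and for 27.2% of all genes. This comparison shares the 2 mutant HFD arrays with that of HFD against ND in mutants, so a low value on them enters both, and the values are given here side by side with no test across the comparisons.

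Mki67 read 9.34, 9.03 and 9.39 on HFD with butyrate, above the 8.43 and 8.30 of the HFD arrays, a difference of 0.89 ± 0.12 (1.86-fold higher; adjusted p = 0.000721). Bub1 read 7.31, 7.33 and 7.15, above 6.57 and 6.16 on HFD. Its difference was 0.90 ± 0.15 (1.87-fold higher; adjusted p = 0.00243). All 3 butyrate arrays of Bub1 lay also above the ND arrays of the mutants, whose highest was 7.01. Birc5 read 8.60, 8.60 and 8.59, nearly level with each other and above 7.95 and 7.74. Its difference was 0.75 ± 0.17 (adjusted p = 0.0111). Cdk1 read 8.75, 8.92 and 8.66 against 8.33 and 7.90, with a difference of 0.66 ± 0.16 (adjusted p = 0.0137).

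On the replication side Mcm7, Mcm4 and Pcna rose. Mcm7 read 9.59, 9.28 and 9.84 on HFD with butyrate, a difference of 0.93 ± 0.19 from HFD (1.91-fold higher; adjusted p = 0.00568). Its other probe sets had smaller differences of 0.52, 0.25 and 0.59. Mcm4 read 8.10, 7.79 and 8.02, a difference of 0.71 ± 0.14 (adjusted p = 0.00534). Pcna read 11.44, 11.50 and 11.40, above both HFD arrays, a difference of 0.44 ± 0.12 (adjusted p = 0.0218). Tk1 (0.51 ± 0.17, adjusted p = 0.0523) and Ccnb2 (0.65 ± 0.22, adjusted p = 0.0591) had higher means without overlap and did not pass. Ube2c, which had the largest fall on HFD in mutants, read 9.49, 9.69 and 9.65 on HFD with butyrate, a difference of 0.38 ± 0.14 from HFD (adjusted p = 0.0735). Tyms (0.07), Bub1b (0.05), Skp2 (0.00), Plk1 (-0.06) and Foxm1 (-0.12) had differences near 0. For Skp2 this holds for the probe set used, and its other probe sets ran from -0.38 to 0.92.

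Without mutant HFD array 2, which leaves 1 mutant HFD array that is assumed to vary like the other groups, 2 members passed, Mki67 and Bub1. The other 5 then differed by 0.56 (Mcm4), 0.84 (Mcm7), 0.65 (Birc5), 0.45 (Cdk1) and 0.25 (Pcna), with adjusted p from 0.0534 to 0.214. Mki67 and Bub1 alone passed whichever array was left out (adjusted p of at most 0.0102 and 0.0315). Mcm4, Mcm7, Birc5 and Cdk1 passed in 4 of these 5 fits, and Pcna in 3. Shares of all genes called in these fits are not given here.

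Set against ND, the mutants on HFD with butyrate showed no member past the threshold (limma, 0 called, 3 with unadjusted p under 0.05). Of all genes 1.57% were called. The members' median was -0.01, with 16 lower and 15 higher. Tyms had the smallest p, at 2.77, 3.00 and 3.24 on HFD with butyrate beside its ND arrays at 3.35 and above, a difference of -0.56 ± 0.14 (adjusted p = 0.0787). Ube2c followed with -0.46 ± 0.13 (adjusted p = 0.0953), and its highest butyrate array (9.69) lay under its lowest ND array (9.88). Bub1 lay on the other side, 0.32 ± 0.14 higher (adjusted p = 0.268). For Mki67 the difference was 0.10, with a 95% interval from -0.14 to 0.34, and for Cdk1 -0.16, with an interval from -0.48 to 0.15. The p-values above the threshold do not show that these groups were alike.

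The 1 wild-type array on HFD with butyrate held the highest value of all 13 arrays for 13 of the 31 members, and 14.7% of all genes had their highest value there. Against the 2 wild-type HFD arrays, 7 members were higher past the threshold, with 9.55% of all genes called higher, under the assumption that the lone array varies like the other groups. Skp2 read 7.09 on it and between 5.88 and 6.29 on the other 12 arrays. Its difference was 1.11 ± 0.17 (2.15-fold higher; adjusted p = 0.00254). Mki67 read 9.81, against 8.78 and 8.71 on wild-type HFD, a difference of 1.06 ± 0.16 (adjusted p = 0.00258). Bub1 read 7.62, against 6.39 and 6.59, a difference of 1.13 ± 0.21 (adjusted p = 0.00587).

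Rrm2 had the largest difference, 1.55 ± 0.39 (2.93-fold higher; adjusted p = 0.0248), with 8.86 on the butyrate array against 7.40 and 7.23. Pcna (0.66, adjusted p = 0.0203), Cdc6 (0.93, adjusted p = 0.034) and Kif20a (0.70, adjusted p = 0.0488) made up the rest. The median over the members was 0.47 against 0.05 over all genes. The Rrm2 and Kif20a calls held in neither fit that left out 1 wild-type HFD array, where 1 array stands against 1. Their differences there were at least 1.46 and 0.64. With the 3 compared arrays alone none passed (limma, smallest adjusted p = 0.147), and without wild-type HFD array 2 there were 3, Skp2, Mki67 and Bub1. The test of whether the butyrate difference depended on genotype called no member (0.00807% of all genes called), and the smallest p was that of Skp2, with a mutant minus wild-type difference of -1.11 ± 0.21 (unadjusted p = 0.000264, adjusted p = 0.518). That value rests on the probe set used and on the 1 wild-type butyrate array. The other Skp2 probe sets parted from it in mutants (-0.38 to 0.92, beside 0.00). Their wild-type butyrate differences were not read singly.

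No member separated mutants from wild type past the threshold. Over the 3 diets, with diet as a term, 29 of 31 members had a lower mean in mutants, 9 of them at an unadjusted p under 0.05, and none passed (limma, 1.02% of all genes called). The median was -0.16 against 0.01 over all genes. Mki67 came closest, with a difference of -0.35 ± 0.08 (adjusted p = 0.0574). Its mutant means were 9.16, 8.36 and 9.25 on ND, HFD and HFD with butyrate, and its wild-type values were 9.36, 8.75 and 9.81, so mutants were lower on each diet. Mcm5 followed with -0.26 ± 0.08 (adjusted p = 0.118) and Ube2c with -0.27 ± 0.08 (adjusted p = 0.124). Some marker lists were also lower in mutants over the 3 diets and others were not, and their part in the members' values was not tested. All 4 duodenal markers had a higher mean (median 0.47), as did 4 of 6 goblet cell (0.05) and 3 of 4 germinal centre B cell markers (0.10). The medians were -0.39 for B and plasma cells, -0.15 for enterocytes and -0.03 for smooth muscle. All 8 macrophage markers had a lower mean (median -0.78), and Lyz2, Aif1 and C1qb passed (adjusted p of 0.0412, 0.0404 and 0.0465). The 8 T cell, 4 Paneth cell and 13 acinar pancreas markers each had lower means in mutants, with medians of -0.45, -1.68 and -1.81, and none of these passed. Of the 7 crypt stem cell markers 6 had a lower mean, and Lgr5, a receptor that marks crypt stem cells, passed (95% interval of the difference -1.32 to -0.68, adjusted p = 0.0348).

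Within single diets no member passed either. On ND there was no unadjusted p under 0.05 (0.0242% of all genes called), and the smallest was that of Aurkb, 0.38 ± 0.22 higher in mutants (adjusted p = 0.505). On HFD, Mki67 alone had one, with 8.43 and 8.30 in mutants against 8.78 and 8.71 in wild type, a difference of -0.38 ± 0.13 (adjusted p = 0.314; 0.0403% of all genes called). There the mutant arrays lay below both wild-type arrays for 13 of 31 members (41.9%), and for 20.2% of all genes. On HFD with butyrate 6 members had an unadjusted p under 0.05, each set against the 1 wild-type array, and the smallest was again that of Skp2 (-0.95 ± 0.16, adjusted p = 0.428; 0 of all genes called).

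Genes of the same pathways that are not among the 32 were read from 8 lists with 126 measured genes. In mutants on HFD against ND, 49 of the 126 fell and 7 rose, where 10.1% of all genes were called lower and 7.67% higher. The list of origin licensing and replication fork genes had 20 of 37 lower and 0 higher, with a median of -0.46. Orc6, a subunit of the origin recognition complex, differed by -1.21 ± 0.14 (2.31-fold lower; adjusted p = 0.000481), Gins1, part of the active helicase, by -1.09 ± 0.15 and Rpa3, which binds single-stranded DNA, by -1.13 ± 0.18. Of the kinetochore, spindle and cytokinesis genes 15 of 30 fell, led by Hmmr, a spindle protein, with -0.97 ± 0.12 (adjusted p = 0.000636), and Nuf2, of the kinetochore's microtubule binding complex, with -0.94 ± 0.15. The 1 gene of that list that rose, Cenpe, a kinetochore motor (0.49 ± 0.12, adjusted p = 0.0192, chosen after its values were seen), had mean levels of 2.92 on HFD and 2.43 on ND, close to the lowest values on the arrays. Of the condensin and cohesin genes 6 of 11 fell, among them Ncaph (-0.65 ± 0.13) and Smc4 (-0.51 ± 0.11).

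The lists of regulators were mixed. Of 10 G1 cyclins and kinases, Ccnd2 (-0.84 ± 0.16, adjusted p = 0.00614), Cdk4 (-0.39 ± 0.12, adjusted p = 0.0492) and Ccnd1 (-0.85 ± 0.27, adjusted p = 0.0497) fell in mutants on HFD, while Ccnd3, another D-type cyclin, rose (0.57 ± 0.11, adjusted p = 0.00605). Of the anaphase promoting complex, 5 of 13 fell and 2 rose. Anapc11, its RING subunit, rose by 1.24 ± 0.15 (2.36-fold; adjusted p = 0.000668) and Anapc5 fell by 0.66 on the log2 scale (adjusted p = 0.00144). E2f4 and E2f3 rose (0.77 and 0.52), and no other of the 10 retinoblastoma and E2F family genes passed. Of the 6 CDK inhibitors Cdkn1c, which encodes p57, rose (0.41 ± 0.13, adjusted p = 0.0491), Cdkn1a, which encodes p21, did not pass (0.62 ± 0.20, adjusted p = 0.0519), and of the 9 checkpoint kinase and Cdc25 genes 0 passed.

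**Figure D4:**
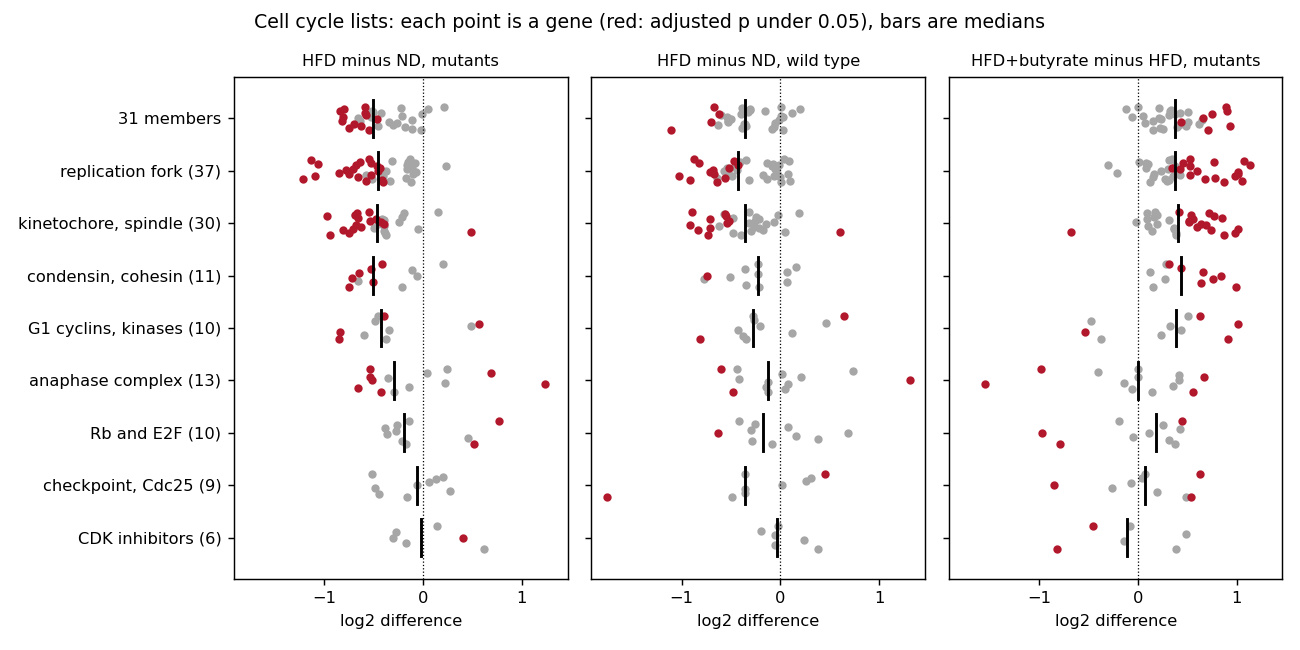
Log2 differences of the members and of 8 further cell cycle lists (rows, with the number of genes measured) in 3 comparisons; each point is a gene, red marks adjusted p under 0.05 and bars are list medians. In mutants the replication fork, kinetochore and condensin rows lie mostly below 0 on HFD and above 0 with butyrate added, while the CDK inhibitor and checkpoint rows straddle 0.

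In wild type on HFD, 28 of the 126 pathway genes fell and 4 rose, where 5.42% of all genes were called lower and 5.62% higher. Replication fork genes made up 12 of the falls, led by Gins1 (-1.03 ± 0.17, adjusted p = 0.00419) and Orc6 (-0.92 ± 0.16, adjusted p = 0.0049), and kinetochore and spindle genes 10, led by Tacc3 (-0.90 ± 0.14, adjusted p = 0.00388). Ccnd3 (0.64) and Anapc11 (1.31) rose here as well. Atm, the DNA damage kinase, fell by 1.76 on the log2 scale (adjusted p = 0.00157), and in mutants its difference was 0.27 ± 0.22 (adjusted p = 0.448). The mutant difference minus the wild-type difference was 2.02 ± 0.32 and did not pass (adjusted p = 0.179), while on HFD alone mutants were higher by 1.69 ± 0.24 (adjusted p = 0.048).

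With butyrate added in mutants, 47 of the 126 rose and 9 fell, where 12.9% of all genes were called higher and 8.78% lower. Among the rises were 17 replication fork genes (Orc6 1.05 ± 0.14, adjusted p = 0.000706), 15 kinetochore and spindle genes (Hmmr 0.77 ± 0.12, adjusted p = 0.0014) and 7 condensin and cohesin genes (Smc4 0.64 ± 0.11, adjusted p = 0.00327). Ccnd1 (0.91 ± 0.27, adjusted p = 0.0335) and Ccne2, cyclin E2 (1.01 ± 0.23, adjusted p = 0.011), rose, and Cdkn1a (-0.82 ± 0.20, adjusted p = 0.0129) and Cdkn2b, which encodes p15 (-0.45 ± 0.14, adjusted p = 0.0464), fell. Anapc11 fell by 1.55 on the log2 scale (2.93-fold lower; adjusted p = 0.000115). Against ND, the mutants on HFD with butyrate had 2 of the 126 past the threshold, Ccnd2 and Cdkn2b, both lower. Of all genes 1.57% were called there, close to the share among the 126. In wild type the butyrate array gave 40 rises and 4 falls against HFD, where 9.55% of all genes were called higher and 5.14% lower. Over the 3 diets, 1 of the 126 was lower in mutants (Pold1) and none was higher, where 1.02% of all genes were called.

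The mean over the 31 members set the HFD arrays apart. It was 7.12 and 7.35 in mutants on HFD and 7.40 on both wild-type HFD arrays, and between 7.57 and 7.88 on the other 9. The HFD arrays did not overlap with the rest. The lowest was mutant HFD array 2, and the highest were wild-type ND array 2 and the wild-type butyrate array, both at 7.88. The SD between arrays of a group, pooled over the groups, was 0.11. Of the 31 members, 25 (80.6%) had their lowest value on an HFD array and 1 (3.23%) had its highest there. Of all 12393 genes, 4954 had their lowest value on an HFD array and 3742 (30.2%) their highest.

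**Figure D5:**
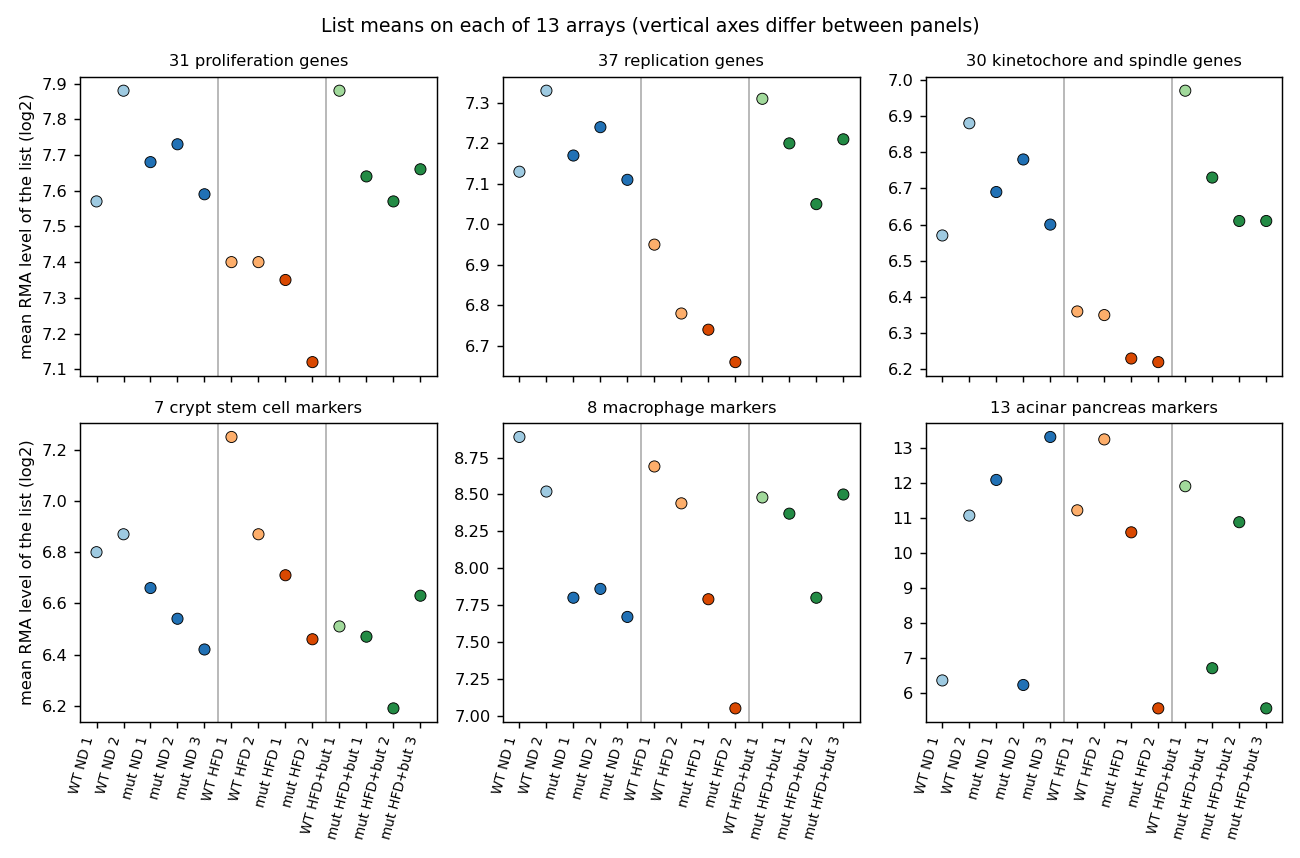
Mean log2 RMA level of 6 gene lists on each of the 13 arrays (points, coloured by group); vertical axes differ between panels. The 3 proliferation panels (top) place the 4 HFD arrays lowest, the crypt stem cell panel does not, and the macrophage and acinar pancreas panels place mutant HFD 2 at or near the bottom.

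Markers of other cells moved with some of these arrays, and their part in the results was not tested except where a value is given. Mutant HFD array 2, which held the most lowest values, also had the lowest mean of the 8 macrophage markers (7.05, against 7.67 to 8.89 on the others) and of the 4 Paneth cell markers (7.56, against 8.20 to 11.44). In mutants with butyrate against HFD, 4 of 8 macrophage markers rose, Csf1r, Tyrobp, C1qb and Aif1, with a list median of 0.82, and on HFD against ND 0 of 8 passed, with a median of -0.35. Of the 7 crypt stem cell markers, among them Lgr5, 0 passed in HFD against ND in either genotype, with medians of 0.01 in mutants and 0.13 in wild type, and with butyrate added in mutants the median was -0.18. The 10 enterocyte markers had medians of 0.08, 0.09 and -0.01 in the same comparisons. Those of the 4 Paneth cell markers were -0.82, -0.71 and 1.19. All 4 had lower means on HFD in each genotype and higher means with butyrate, and Pla2g2a in wild type alone passed. The medians were -0.16, -0.47 and 0.10 for smooth muscle and -0.06, -0.11 and -0.13 for goblet cells. All 4 duodenal markers were higher on HFD in mutants, with a median of 1.01, and 3 of them passed, Cybrd1, Gata4 and Slc40a1.

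The pancreas genes were low on the same array, at a mean of 5.55, and on 4 arrays of other diets. At the level of 8, chosen after the values were seen, 1 HFD array lies on the lower side. Among arrays with a pancreas mean under 8, the member mean was 7.12 on the HFD array and 7.57 to 7.73 on the 4 others. Among arrays above it, the member mean was 7.35 to 7.40 on the 3 HFD arrays and 7.57 to 7.88 on the 5 others. With the pancreas mean as a covariate, 11 of the 12 members called in HFD against ND in mutants passed, Aurka was lost (adjusted p = 0.0833) and Mcm6 gained. The differences of the 12 ran from -0.84 to -0.45 with it and from -0.84 to -0.47 without. With butyrate against HFD in mutants all 7 passed, at 0.45 to 0.92 with the covariate and 0.44 to 0.93 without. In wild type 2 of the 4 HFD calls and 6 of the 7 butyrate calls passed with it.

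For 17 of the 31 members other probe sets were present, 32 in all, and 21 of them had the same sign as the probe set used in the mutant difference of HFD against ND. Of the 15 with a mean level of 6 or more, 12 had the same sign. Ccna2 was a case where they parted in size, with -0.11 on the probe set used and -0.55 on the other, whose mean levels were 8.76 and 8.65. For Skp2, with 6 probe sets, the differences ran from -0.45 to 0.55 with both signs. For butyrate against HFD in mutants they ran from -0.38 to 0.92, with 0.00 on the probe set used.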

How the data were processed

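RNA was labelled and hybridised to Affymetrix arrays, per the labels' protocols. The deposited log2 values are the authors' RMA output (background correction, quantile normalization and probe set summary) from Affymetrix Expression Console 1.1, per the submitters' processing notes. Apart from the promoter table, whose build is given above, no source used here names a genome build. The protocol names a whole-transcript labelling kit while the probe set names are those of a 3' array, so the chemistry is not settled. Of 22690 probe sets 20380 had exactly 1 symbol, 691 several and 1555 none, and 64 were controls. The probe set with the highest mean stood for each of 12393 genes.

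Groups follow the genotype and diet that the labels give. R 4.3.3 with limma 3.58.1 (lmFit, contrasts, eBayes with intensity trend) fitted all 13 arrays together, in 11 two-sided comparisons, and p-values were adjusted by Benjamini-Hochberg across every gene tested with a threshold of 0.05. The residual degrees of freedom were 7, or 9 with diet as a term. The procedure was tested on simulated data. No 2 arrays shared more than 408 values to 3 decimals.

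The members, the 8 pathway lists, the marker lists and the motifs were chosen with earlier results of these data known. Named were all members past the threshold (up to 12), the 3 smallest p in each comparison, the brightest member of each role, and up to 3 genes of each pathway list. The pancreas level of 8 that splits the arrays and the other genes singled out were chosen after their values were seen. Alternatives were a further quantile normalization, dropping the dimmest 30% of genes, averaging all probe sets of a gene, no trend, array weights, a fit on the compared groups alone, a block for replicate number, the pancreas mean as a covariate and leaving out each array.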

Additional observations from a re-analysis of the deposited data

How the results depend on the processing

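Leaving out each array of a comparison in turn gave 2 to 10 members past the threshold for HFD against ND in mutants (12 with all arrays), 0 to 7 in wild type (4), 2 to 9 for butyrate added in mutants (7), 3 to 5 for butyrate added in wild type (7) and 0 to 1 for genotype over the diets (0, with Mki67 the nearest). Each of the other comparisons stayed at 0. In wild type on HFD a further quantile normalization gave 8 members, the mean of probe sets 7, array weights 1 and the compared groups alone 0. Array weights gave 2 members for butyrate against ND in mutants and 12 for butyrate added in wild type, where the compared groups alone gave 0. Leaving out dim genes gave 1 of 30 members for genotype over the diets. The median of the genotype by diet difference on HFD was -0.14, ran from -0.27 to 0.02 with 1 array left out, and turned to 0.02 without wild-type ND replicate 1. The cause was not tested for any of these. Counts of members in alternative fits, here and above, stand without the share of all genes called in the same fit. They do not show whether the members depended on the fit more than other genes did. Of the named genes' values under an alternative, 353 kept direction and side of the threshold, 63 lost the call and 3 gained it, and none reversed.

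With the replicate number as a block, 10 members passed for HFD against ND in mutants, 3 in wild type and 7 for butyrate added in mutants, and 0 in the other comparisons that could be run. The wild-type butyrate array has no number in its label and was left out of these fits, so the 3 comparisons that need it were not run with the block. Same-numbered arrays correlated at 0.28 and 0.42 for HFD against ND in mutants, which has 2 pairs, and at 0.13, -0.31 and -0.25 for butyrate against ND in mutants, the comparison with 3 pairs; the others ran from -0.33 to 0.06. The correlations are of deviations from the group mean, which are equal and opposite in a group of 2 arrays. Arrays with different numbers reached 0.38, for mutant butyrate array 3 and mutant ND array 2. Whether the numbers mark pairs cannot be read from these values, and the numbers were not taken as pairs.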
